A study of Mus musculus with 96 samples.

Results

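Nrn1, Pcdh20, AW551984, Ttn, Tpx2, Pla2g5, Tmc3, Chdh and Dsp are 9 genes chosen by their large rises in 1 or both of 2 mouse models of Huntington's disease, out of 15260 genes listed in all 3 deposited tables. Because differences between model and control chose them, those differences are given here as a description, with no test. Tests of model against control are given for other genes only. For the 9 genes tests are given only for IP RNA against input RNA and for age, both within control mice. These are not the contrasts that chose the genes, but the control libraries were the second arm of those contrasts, so the tested values are not independent of the choice. The RNA came from the striatum, the forebrain region that is most affected in this disease. Q175 mice, which carry an expanded CAG repeat in their own Htt gene, were set against WT mice of the same C57BL/6J strain at 2, 6 and 12 months of age. R6/2 mice, which carry a transgene with part of human HTT, were set against NCAR controls at 1, 2 and 3 months, all labelled as CBA x C57BL/6. All mice, controls included, had an adeno-associated virus injected into the striatum, and the labels give neither its cargo nor the tag or antibody of the immunoprecipitation. Each of the 24 combinations of genotype, age and RNA type had 4 libraries, of input RNA or of IP RNA, and nothing in the labels says that these came from separate mice, so p-values measure only the spread between libraries.

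Levels are in CPM, a gene's reads per 1000000 reads of its library, with library totals scaled to the other libraries of 1 run. Differences are log2 fold changes ± SE, each from a fit of its own with 4 against 4 libraries. Q175 and WT mice share 1 run label, R6/2 and NCAR mice carry another at 1 month and a further one at 2 and 3 months, so levels are not ranked across these runs. The 48 IP libraries held 41870000 to 84210000 reads and the 48 input libraries 27120000 to 51190000 reads, to 4 digits. No member was at 0 in any library, and all 9 passed the filter on low values in every fit, those with control libraries alone included. In bulk tissue, more RNA per cell and more cells of a type cannot be told apart.

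In Huntington's disease the medium spiny neurons, the projection neurons that make up most of the striatum, lose many of their characteristic transcripts and later degenerate. Astrocytes, the glial cells that take up glutamate and buffer potassium around them, change as well. The 9 genes come from unrelated families. Nrn1 encodes neuritin, a small membrane-anchored protein that neurons make in response to activity and that promotes the growth of neurites. Pcdh20 encodes a protocadherin, a cell adhesion molecule, and Tmc3 a membrane protein of the family that holds the mechanotransduction channels of hair cells. Dsp encodes desmoplakin, which ties desmosomes to intermediate filaments in epithelia and heart, and Ttn encodes titin, the giant spring protein of the muscle sarcomere. Tpx2 encodes a factor that assembles the mitotic spindle and activates Aurora A kinase. Pla2g5 encodes a secreted phospholipase A2, which frees fatty acids from membrane phospholipids, and Chdh the mitochondrial choline dehydrogenase, which begins the conversion of choline to betaine. AW551984 carries a sequence identifier in place of a name.

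The IP libraries were rich in RNA of astrocytes and of some other cell types. In each of the 6 control groups all 20 astrocyte markers were called higher in IP than in input by limma, and all 11 microglia markers and 9 or 10 of 11 endothelial and mural markers were called lower. In the same groups 7 to 9 of 10 striatal interneuron markers, 4 or 5 of 6 oligodendrocyte precursor markers and 4 to 6 of the 7 or 8 ependymal and choroid plexus markers tested were called higher. Of 12 oligodendrocyte markers 7 and 8 were called higher in WT at 6 and 12 months and 4 in NCAR at 3 months, while 10 were called lower in NCAR at 1 month. The summed level of the astrocyte markers was 61700 to 74700 CPM in IP and 7950 to 8300 CPM in input of WT mice at 2 months. RNA of neurons was present too, with 6260 to 7790 CPM of 16 medium spiny neuron markers in IP and 15700 to 17100 CPM in input of the same mice. The 14 pan-neuronal markers summed to 5300 to 5590 CPM in IP and 5820 to 5970 CPM in input there. Over the 6 control groups 4 to 8 of these 14 were called higher in IP and 3 to 7 lower, with medians of -0.21 to 0.30. The medium spiny neuron markers were lower in the models, with 14 of 16 called lower in Q175 IP at 12 months and 13 in R6/2 IP at 3 months. Their sum was 2410 to 3930 CPM in Q175 against 6740 to 9690 CPM in WT IP at 12 months, and 2480 to 3240 against 5930 to 9860 CPM in R6/2 and NCAR IP at 3 months. In input the sums were 6010 to 6820 against 12500 to 13800 CPM and 4940 to 6050 against 15400 to 16100 CPM. The astrocyte sums in IP were 38700 to 57200 against 40600 to 46200 CPM at 12 months and 38000 to 46400 against 49400 to 66200 CPM at 3 months. The median log2 difference of 14 pan-neuronal markers was -0.05 in Q175 IP at 12 months and -0.13 in R6/2 IP at 3 months. Oligodendrocyte markers had a median of 0.03 in Q175 IP at 12 months, and of -1.04 and -1.79 in R6/2 IP at 2 and 3 months, where 3 and 8 of 12 were called lower. Their sums at 3 months were 2130 to 3660 CPM in R6/2 and 4140 to 13400 CPM in NCAR IP, with no overlap. Striatal interneuron markers had a median of 0.05 in Q175 IP at 12 months, and of -0.81 and -0.85 in R6/2 IP at 2 and 3 months, where 4 of 10 were called lower at each age. In R6/2 input at 3 months 14 of the 20 astrocyte, 10 of the 11 microglia, 8 of the 10 interneuron and 6 of the 12 oligodendrocyte markers were called lower. What part these shifts have in the members' rises was not tested. A few libraries stood apart in 4 markers of cortical excitatory neurons (Slc17a7, Neurod6, Tbr1 and Neurod2), a list made after the values were seen. In 11 of the 96 libraries their sum was over 4 times the median of the other libraries of the group, and the highest ratio was in replicate 1 of NCAR IP at 1 month, with 81.0 CPM against a median of 3.14 CPM in the others.

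Promoter sequence is shown for Tmc3 and Dsp, because both stood far higher in older Q175 mice than in WT mice, both rose with age in WT mice as well, and their starts differ in base composition. The windows run from 250 bases before to 50 after a gene's start, 300 bases in all, from RefSeq on build GRCm38.p6, and CpG dinucleotides are in capitals. Of the 9 genes, 7 had windows in that table, 12 in all, and none was found for Nrn1 and Tpx2.
Tmc3, chr7:83584681-83584980, plus strand: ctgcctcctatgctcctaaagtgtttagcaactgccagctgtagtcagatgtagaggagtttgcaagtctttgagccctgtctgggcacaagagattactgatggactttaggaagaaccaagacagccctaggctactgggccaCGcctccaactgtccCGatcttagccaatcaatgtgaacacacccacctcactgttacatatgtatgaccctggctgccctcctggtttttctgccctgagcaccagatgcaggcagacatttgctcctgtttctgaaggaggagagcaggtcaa
Dsp, chr13:38151044-38151343, plus strand: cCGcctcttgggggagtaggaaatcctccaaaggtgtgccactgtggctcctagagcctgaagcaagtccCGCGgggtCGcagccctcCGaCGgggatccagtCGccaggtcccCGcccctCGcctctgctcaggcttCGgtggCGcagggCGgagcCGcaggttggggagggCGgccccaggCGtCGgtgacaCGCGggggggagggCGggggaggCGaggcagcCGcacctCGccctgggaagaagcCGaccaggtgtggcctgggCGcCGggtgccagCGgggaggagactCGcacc
The Tmc3 window held 2 CpG and 51.0% G or C, and the Dsp window held 27 CpG and 73.0%. Over all 32851 windows of the same length the medians were 7 CpG and 52.7%. Of the 12 windows of the members, 1 of the 3 windows of Chdh held 26 CpG and all 9 windows other than these held 2 to 8. Motifs were looked for on both strands. The cyclic AMP response element TGACGTCA was in none of the 12 windows and in 1.79% of all windows. The box CCAAT was in at least 1 window of Pcdh20, AW551984, Ttn, Pla2g5 and Tmc3, though not in each AW551984 window. It was in 37.4% of all windows, a share of windows and not of genes. The cell cycle element TTTGAA was in 1 Chdh window and in 17.9% of all windows, and the E-box CACGTG in 1 AW551984 window and in 7.15%. The absence of a motif says only that its letters are not in that stretch.

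Taken as a group, the members overlapped the controls in the youngest Q175 mice and were higher later. In Q175 IP 0 of the 9 were higher with no overlap of libraries at 2 months, where 1.66% of all genes tested were. The number was 5 at 6 months, against 2.9% of all genes, and 7 at 12 months, against 6.0%. Input RNA of the same groups gave 0, 5 and 6 members, against 1.3%, 7.42% and 8.62% of all genes. In R6/2 IP the count was 2 at 1 month, 6 at 2 months and 7 at 3 months, against 3.47%, 5.55% and 8.86%, and in R6/2 input it was 5, 7 and 5, against 8.92%, 10.7% and 15.2%. These counts restate the choice of the genes and nothing is read from them beyond their timing. An alternative added after the values were seen left out the libraries that stood apart in cortical markers. The count was then 4 in R6/2 IP at 1 month, 8 in R6/2 IP and 7 in R6/2 input at 3 months, and 8 in Q175 input at 12 months. Leaving out libraries can only keep or raise such a count. The share of all genes was not counted that way, so nothing is read from these values. The median difference of the 9 genes went from 0.13 to 0.76 and 1.32 with age in Q175 IP and from 0.49 to 1.16 and 1.56 in R6/2 IP, where the medians of all genes were 0.00 to 0.02.

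**Figure D1:**
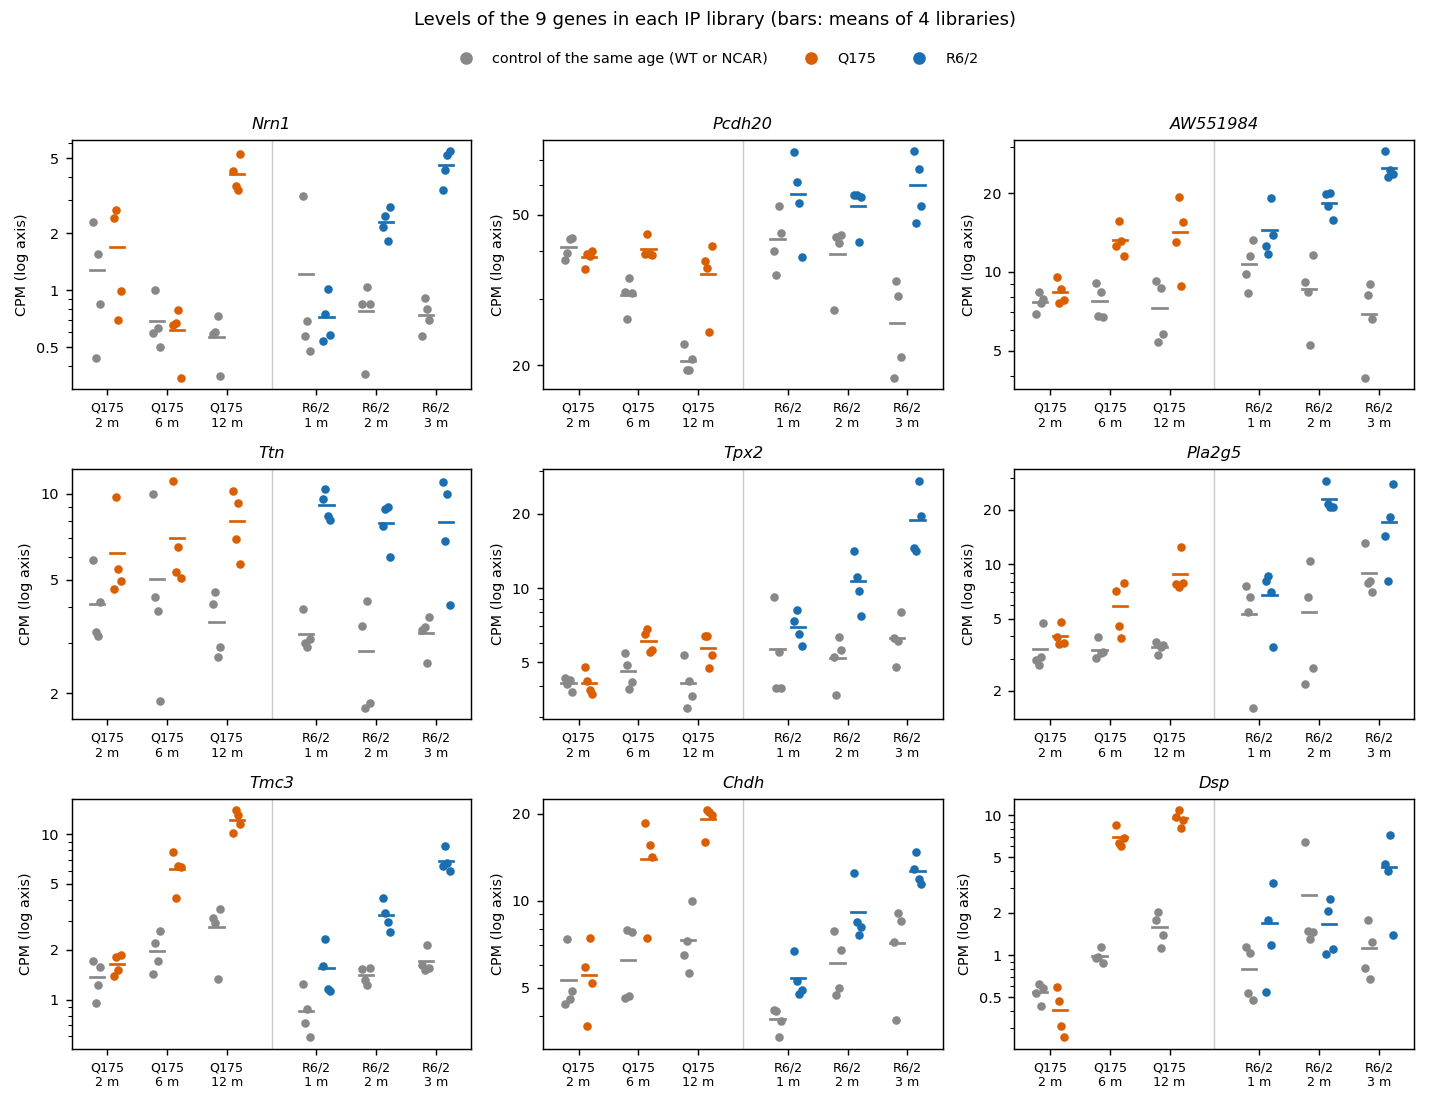
Level of each gene in every IP library, in CPM on a log axis, by age and genotype. Grey points are the controls of the same age (WT or NCAR), orange points Q175, blue points R6/2, and bars are means of 4 libraries. Tmc3 and Dsp stand well above WT in Q175 at 6 and 12 months, and Nrn1 only at 12 months in Q175 and at 2 and 3 months in R6/2.

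Nrn1 (ENSMUSG00000039114, chr13 36725361 to 36735131, minus strand, mm10) stood higher in older mice of both models, and in R6/2 mice it parted the genotypes in IP RNA, while in input they overlapped with all libraries used. In Q175 IP at 12 months its libraries stood at 4.29, 3.55, 3.40 and 5.24 CPM, against 0.591, 0.599, 0.732 and 0.351 CPM in WT. The lowest Q175 library was well above the highest WT library, and the difference was 2.88 ± 0.24. At 6 months Q175 stood at 0.654, 0.671, 0.790 and 0.345 CPM and WT at 0.592, 1.01, 0.634 and 0.505 CPM. Those groups overlapped, with a difference of -0.16 ± 0.31, so the genotypes parted after 6 months. At 2 months the levels were 2.43, 2.65, 0.701 and 0.989 CPM in Q175 and 2.30, 0.440, 1.56 and 0.846 CPM in WT, a difference of 0.45 ± 0.56. Both groups held high and low libraries at that age, and the 2 high Q175 libraries had cortical marker sums of 88.4 and 88.7 CPM against 8.15 and 7.08 CPM in the other two. Without these 2 libraries the difference was -0.36 ± 0.59. That removal was one-sided, since WT libraries with cortical sums of 65.3, 32.4 and 30.5 CPM did not stand apart within their own group and stayed in.

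Input RNA of the Q175 mice showed the same timing of Nrn1 at a higher level. At 12 months the 4 input libraries held 16.7, 22.4, 20.2 and 18.0 CPM, against 1.36, 2.38, 1.78 and 3.12 CPM in WT. No library of the genotypes came near the other, and the difference was 3.22 ± 0.22. At 6 months the values were 1.94, 2.26, 1.71 and 1.59 CPM in Q175 and 8.71, 1.66, 2.39 and 1.15 CPM in WT. Replicate 1 of WT was far above the rest there, with a cortical marker sum of 51.0 CPM against 11.7 to 30.6 CPM in the others, and the difference of -0.42 ± 0.49 became 0.18 without it. At 2 months the ranges were 1.24 to 3.66 CPM in Q175 and 1.43 to 3.86 CPM in WT (-0.16 ± 0.38).

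In R6/2 mice Nrn1 stood higher in IP from 2 months on. The IP libraries stood at 2.16, 2.49, 1.83 and 2.75 CPM in R6/2 and 0.851, 0.360, 1.04 and 0.850 CPM in NCAR at 2 months, a difference of 1.67 ± 0.34. At 3 months they stood at 3.41, 4.33, 5.23 and 5.47 and 0.574, 0.913, 0.799 and 0.694 CPM, a difference of 2.63 ± 0.24. The genotypes did not overlap at either age, and the R6/2 libraries at 3 months were all above those at 2 months. In input RNA of the same ages the differences were smaller. It held 1.60, 1.14, 1.07 and 1.75 CPM in R6/2 and 1.49, 1.41, 1.42 and 1.67 CPM in NCAR at 2 months (-0.13 ± 0.25), and 3.25, 1.91, 2.67 and 2.85 against 2.59, 1.08, 1.57 and 3.74 CPM at 3 months (0.37 ± 0.38), with overlap at both ages. Replicates 1 and 4 of NCAR input at 3 months stood apart in cortical markers, and without them that difference was 0.99 ± 0.33. Replicates 1 and 4 also held the highest Nrn1 of that NCAR group, 2.59 and 3.74 CPM, so leaving them out raises the difference by itself. The 2 NCAR libraries left held 1.08 and 1.57 CPM and the lowest R6/2 library 1.91 CPM. Nothing is read from this lack of overlap. The differences in IP were 1.79 ± 0.40 and 2.73 ± 0.24 at 2 and 3 months without the libraries that stood apart. At 1 month the IP values were 0.542, 0.754, 1.02 and 0.583 CPM in R6/2 and 3.14, 0.571, 0.691 and 0.478 CPM in NCAR. The difference of -0.30 ± 0.56 turned to 0.31 without replicate 1 of NCAR, the library with the high cortical markers. Input at 1 month ranged over 1.03 to 2.24 CPM in R6/2 and 1.42 to 4.46 CPM in NCAR (-0.62 ± 0.38).

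**Figure D2:**
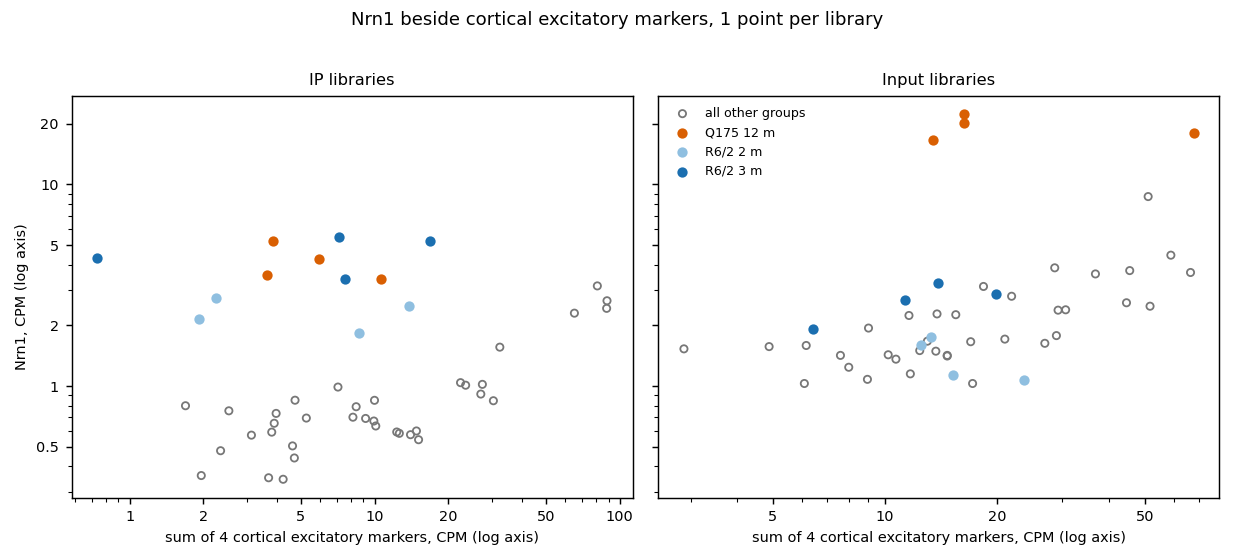
Level of Nrn1 in each library against the sum of 4 cortical excitatory marker genes, both in CPM on log axes, IP libraries on the left and input libraries on the right. Filled points are Q175 at 12 months (orange) and R6/2 at 2 months (light blue) and 3 months (dark blue), and open points are all other groups. The Q175 points at 12 months lie at 3.40 to 5.24 CPM in IP, at cortical sums of 3.62 to 10.6 CPM.

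Nrn1 and the cortical markers moved together in some libraries and apart in others. Replicate 1 of NCAR IP at 1 month held both the highest Nrn1 of the control IP libraries of its run, 3.14 CPM, and the highest cortical sum, 81.0 CPM. The groups in which Nrn1 was high had sums that overlapped those of their controls. The range was 3.62 to 10.6 CPM in Q175 IP at 12 months, where WT had 3.69 to 14.8 CPM, and 0.736 to 16.8 CPM in R6/2 IP at 3 months, where NCAR had 1.69 to 27.1 CPM. In Q175 input at 12 months 1 library, replicate 4, had a sum of 67.7 CPM, and its Nrn1 of 18.0 CPM lay within the range of the other libraries of that group. Without it the difference in Nrn1 was 3.26 ± 0.25.

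Pcdh20 (ENSMUSG00000050505, chr14 88464743 to 88471396, minus strand) had the highest level per kilobase of exon among the 9 genes in WT IP at 2 months, 7.48 CPM per kb. In WT mice it fell with age, and Q175 mice stood above them at 6 and 12 months. WT IP libraries stood at 38.0, 39.7, 43.2 and 43.4 CPM at 2 months, 31.3, 26.5, 33.9 and 31.1 at 6 months and 22.7, 19.4, 19.4 and 20.7 at 12 months. Those of Q175 stood at 35.9, 39.4, 38.9 and 40.0 CPM at 2 months, 39.3, 44.4, 39.4 and 39.0 at 6 months and 37.7, 36.1, 24.4 and 41.2 at 12 months. Q175 was above WT with no overlap at 6 and 12 months, by 0.41 ± 0.08 and 0.75 ± 0.15, and overlapped it at 2 months (-0.08 ± 0.06). Input RNA separated the genotypes more widely. WT input held 17.9 to 23.2 CPM at 2 months, 13.5 to 14.1 at 6 and 10.0 to 14.5 at 12 months, while Q175 input held 21.1 to 25.3, 32.3 to 37.2 and 34.5 to 41.6 CPM at those ages. The differences in input were 0.17 ± 0.09, 1.33 ± 0.06 and 1.64 ± 0.11.

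R6/2 mice had more Pcdh20 in input at every age. Input libraries held 43.4, 70.0, 34.7 and 69.7 CPM in R6/2 against 23.4, 20.0, 27.4 and 22.7 CPM in NCAR at 1 month, a difference of 1.17 ± 0.20. It was 1.46 ± 0.17 at 2 months and 2.05 ± 0.18 at 3 months, when R6/2 stood at 57.7, 37.6, 43.6 and 58.0 CPM and NCAR at 14.0, 9.75, 13.0 and 9.97 CPM. The genotypes did not overlap in input at any of these ages. In IP the ranges overlapped at 1 month (38.6 to 73.5 against 34.6 to 52.8 CPM, 0.39 ± 0.20) and at 2 months (42.3 to 56.3 against 27.9 to 44.2 CPM, 0.44 ± 0.16). At 3 months they did not, with 47.6 to 73.8 CPM in R6/2 and 18.5 to 33.3 CPM in NCAR, a difference of 1.25 ± 0.21.

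AW551984 (ENSMUSG00000038112, chr9 39587396 to 39604403, minus strand) stood higher from 6 months on in Q175 mice and from 2 months on in R6/2 mice. Q175 IP libraries stood at 12.6, 15.7, 13.1 and 11.5 CPM at 6 months against 9.05, 6.76, 8.37 and 6.74 CPM in WT, with no overlap and a difference of 0.79 ± 0.13. At 12 months the ranges were 8.86 to 19.3 and 5.41 to 9.21 CPM, and 1 Q175 library lay within the WT range (0.96 ± 0.25). At 2 months the difference was 0.13 ± 0.10. Input gave -0.08 ± 0.20, 1.46 ± 0.19 and 1.22 ± 0.28 at the 3 ages. The input ranges were 8.84 to 9.89 against 2.96 to 5.50 CPM at 6 months and 6.89 to 13.8 against 3.39 to 8.63 CPM at 12 months. At 12 months the highest WT library exceeded the lowest Q175 library.

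At 1 month R6/2 IP held 12.6, 11.7, 19.2 and 13.8 CPM of AW551984 and NCAR IP 9.82, 8.30, 11.5 and 13.2 CPM. At 2 months the values were 19.9, 17.9, 20.0 and 15.8 CPM in R6/2 and 9.16, 8.37, 5.24 and 11.6 CPM in NCAR. At 3 months they were 29.0, 23.0, 24.5 and 23.6 CPM in R6/2 and 3.94, 8.13, 8.97 and 6.60 CPM in NCAR. The differences were 0.43 ± 0.19, 1.16 ± 0.23 and 1.92 ± 0.23, and the genotypes were apart at 2 and 3 months. In input they were apart at the same ages, by 1.78 ± 0.24 and 2.26 ± 0.19, with 12.8 to 17.9 CPM in R6/2 and 2.59 to 4.29 CPM in NCAR at 3 months. At 1 month the input ranges overlapped (0.66 ± 0.21).

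Tmc3 (ENSMUSG00000038540, chr7 83584927 to 83625614, plus strand) was among the lowest of the 9 genes in young WT mice, 0.151 CPM per kb of exon in IP at 2 months, and stood higher in older mice of both models in both RNA types. Q175 IP libraries stood at 1.39, 1.82, 1.51 and 1.86 CPM at 2 months, 7.79, 4.09, 6.44 and 6.34 at 6 months and 10.1, 13.9, 13.0 and 11.5 at 12 months. WT IP libraries stood at 1.70, 0.950, 1.23 and 1.58 CPM at 2 months, 1.43, 2.19, 1.72 and 2.60 at 6 months and 3.12, 2.89, 1.34 and 3.55 at 12 months. The genotypes overlapped at 2 months (0.31 ± 0.20) and were apart at 6 months (1.64 ± 0.23) and 12 months (2.24 ± 0.27). Within Q175 the libraries at 12 months all lay above those at 6 months. In input Q175 held 4.90, 5.61, 5.10 and 3.58 CPM at 12 months and WT 1.07, 1.01, 1.46 and 0.647 CPM. The input differences were -0.06 ± 0.37, 1.79 ± 0.20 and 2.23 ± 0.24, and those at 6 and 12 months lay within their SE of the IP values.

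In R6/2 mice the difference in Tmc3 was larger in input than in IP, which was not tested. Input libraries stood at 0.800, 0.853, 0.378 and 1.39 CPM in R6/2 and 0.310, 0.154, 0.131 and 0.365 CPM in NCAR at 1 month, a difference of 1.80 ± 0.50. At 2 months they stood at 5.20, 4.46, 5.46 and 3.68 and 0.681, 0.787, 0.466 and 0.640 CPM (2.87 ± 0.24), and at 3 months at 5.01, 6.23, 6.57 and 5.13 and 0.885, 0.571, 0.743 and 0.718 CPM (2.95 ± 0.25). No R6/2 input library overlapped the NCAR libraries of its age. IP gave 0.86 ± 0.32, 1.20 ± 0.21 and 2.02 ± 0.18. R6/2 IP held 4.10, 3.36, 2.94 and 2.56 CPM at 2 months and 6.46, 8.49, 6.69 and 5.99 at 3 months, against 1.22 to 1.56 and 1.51 to 2.14 CPM in NCAR, and the genotypes overlapped only at 1 month.

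Dsp (ENSMUSG00000054889, chr13 38151294 to 38198577, plus strand) had the largest difference of the 9 genes in Q175 IP at 6 months. Its libraries stood at 8.48, 6.33, 5.99 and 6.91 CPM in Q175 and 0.957, 0.966, 1.15 and 0.873 CPM in WT, far apart, with a difference of 2.81 ± 0.14. At 12 months they stood at 9.72, 10.8, 8.15 and 9.17 and 1.77, 2.04, 1.12 and 1.39 CPM (2.62 ± 0.19). At 2 months the Q175 values of 0.597, 0.468, 0.312 and 0.259 CPM overlapped the WT values of 0.538, 0.625, 0.431 and 0.586 CPM (-0.46 ± 0.30). Between 2 and 6 months Dsp therefore went from overlap with WT to a fold of 7.02. Input followed the same course, with 2.62 to 4.49 against 0.388 to 0.930 CPM at 6 months (2.49 ± 0.29) and 3.65 to 7.54 against 0.625 to 0.842 CPM at 12 months (3.05 ± 0.22), after 0.19 ± 0.45 at 2 months.

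In R6/2 mice Dsp varied between libraries and gave no steady course. IP libraries at 3 months stood at 4.45, 3.96, 7.23 and 1.40 CPM in R6/2 and 0.813, 1.78, 0.679 and 1.24 CPM in NCAR. The difference was 1.80 ± 0.48, with 1 R6/2 library inside the NCAR range. At 2 months R6/2 held 1.02, 2.07, 2.50 and 1.10 CPM and NCAR 6.46, 1.49, 1.31 and 1.46 CPM, and replicate 1 of NCAR stood far above the rest, so that the difference was -0.40 ± 0.53. At 1 month the ranges were 0.542 to 3.28 and 0.478 to 1.15 CPM (0.92 ± 0.53). Input gave 0.64 ± 0.59, -0.20 ± 0.31 and 1.71 ± 0.45, with overlap at each age. The input difference at 1 month was 1.27 without replicate 2 of R6/2.

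Ttn (ENSMUSG00000051747, chr2 76703980 to 76982547, minus strand) was already higher in R6/2 mice at 1 month. IP libraries stood at 9.60, 10.4, 8.32 and 8.06 CPM in R6/2 and 3.94, 2.99, 2.90 and 3.10 CPM in NCAR, apart by 1.51 ± 0.15. The difference was 1.58 ± 0.30 at 2 months (6.01 to 9.00 against 1.78 to 4.19 CPM) and 1.21 ± 0.30 at 3 months (4.07 to 11.0 against 2.56 to 3.69 CPM), with no overlap at either age. Input gave 1.13 ± 0.17, 1.71 ± 0.23 and 1.01 ± 0.21, and the libraries were apart at the 3 ages. Of the 9 genes, Ttn and Chdh were the ones whose genotypes were apart in both RNA types of R6/2 mice at 1 month. In Q175 mice the difference in Ttn was less clear. At 12 months Q175 IP held 10.2, 6.92, 9.28 and 5.68 CPM and WT IP 4.12, 4.53, 2.68 and 2.89 CPM, apart by 1.18 ± 0.22. At 6 months the ranges were 5.06 to 11.1 and 1.88 to 9.97 CPM and overlapped (0.66 ± 0.44), as they did at 2 months (0.58 ± 0.26). Input gave -0.07 ± 0.29, 1.01 ± 0.37 and 0.89 ± 0.20, and only the libraries at 12 months were apart (7.98 to 17.2 against 5.04 to 7.26 CPM). Spread over its very long exons, Ttn was the lowest of the 9 genes in WT IP at 2 months at 0.0352 CPM per kb, and in Q175 IP at 12 months it stood at 0.0686 CPM per kb.

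Tpx2 (ENSMUSG00000027469, chr2 152847964 to 152895321, plus strand) stood higher mainly in R6/2 mice. IP libraries at 3 months stood at 14.6, 14.1, 27.3 and 19.6 CPM in R6/2 and 6.31, 4.79, 6.08 and 8.01 CPM in NCAR, apart by 1.56 ± 0.23. At 2 months they stood at 14.1, 11.1, 9.78 and 7.73 and 5.24, 3.70, 6.35 and 5.63 CPM (1.03 ± 0.22), also apart, and at 1 month they overlapped (0.40 ± 0.27). In input the differences were 0.97 ± 0.17, 1.95 ± 0.26 and 1.29 ± 0.38. NCAR input at 3 months was uneven, with 4.29, 10.8, 13.3 and 4.25 CPM against 18.5, 24.9, 18.1 and 11.7 CPM in R6/2, and its highest library exceeded the lowest R6/2 library. Without replicates 1 and 4 of that NCAR group, which stood apart in cortical markers, the difference was 0.54 ± 0.26. In Q175 IP the differences stayed small, 0.02 ± 0.11, 0.43 ± 0.13 and 0.49 ± 0.17, with 5.49 to 6.83 against 3.89 to 5.46 CPM at 6 months, when the genotypes just did not overlap. Q175 input gave -0.04 ± 0.18, 0.47 ± 0.22 and 0.55 ± 0.17, with overlap at each age.

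Pla2g5 (ENSMUSG00000041193, chr4 138799244 to 138863482, minus strand) was highest in R6/2 IP at 2 months. Its libraries there stood at 29.0, 21.5, 20.8 and 20.7 CPM, against 2.18, 6.64, 10.4 and 2.69 CPM in NCAR, apart by 2.35 ± 0.43. At 3 months R6/2 held 14.3, 8.05, 18.2 and 27.9 CPM and NCAR 13.1, 7.85, 8.08 and 7.02 CPM. The genotypes overlapped at that age (0.84 ± 0.34), and NCAR itself was on average higher than at 2 months. At 1 month the ranges were 3.50 to 8.62 and 1.62 to 7.63 CPM (0.50 ± 0.48). In Q175 IP Pla2g5 stood at 7.84, 7.46, 12.4 and 7.93 CPM at 12 months against 3.75, 3.15, 3.52 and 3.61 CPM in WT, apart by 1.32 ± 0.15. The earlier differences were 0.28 ± 0.17 at 2 months and 0.76 ± 0.22 at 6 months, both with overlap. Input gave smaller differences, with -0.02 ± 0.23, 0.14 ± 0.19 and 0.78 ± 0.22 in Q175 and -0.08 ± 0.31, 1.25 ± 0.36 and 0.60 ± 0.37 in R6/2. Only the input libraries of R6/2 at 2 months were apart from their controls, at 3.77 to 6.78 against 1.29 to 3.70 CPM.

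Chdh (ENSMUSG00000015970, chr14 30009023 to 30040527, plus strand) stood higher in older mice of both models in both RNA types. Q175 IP libraries at 12 months stood at 15.9, 20.5, 20.2 and 19.7 CPM and WT IP libraries at 6.48, 7.26, 5.61 and 9.96 CPM, apart by 1.42 ± 0.16. At 6 months 1 of the Q175 libraries, at 7.40 CPM, lay within the WT range of 4.61 to 7.92 CPM, and the other three stood at 14.1 to 18.6 CPM (1.14 ± 0.29). The difference at 2 months was 0.07 ± 0.22. In Q175 input it was 0.24 ± 0.20, 1.04 ± 0.11 and 1.15 ± 0.19, and the genotypes were apart at 6 months (8.48 to 9.90 against 4.08 to 5.21 CPM) and at 12 months (8.49 to 10.9 against 2.97 to 5.90 CPM). R6/2 input was apart from NCAR at 1, 2 and 3 months, by 0.75 ± 0.17, 0.99 ± 0.13 and 1.15 ± 0.15. R6/2 IP gave 0.49 ± 0.15, 0.60 ± 0.22 and 0.90 ± 0.25, and was apart at 1 and 3 months, with 11.4 to 14.7 against 3.88 to 9.08 CPM at 3 months.

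**Figure D3:**
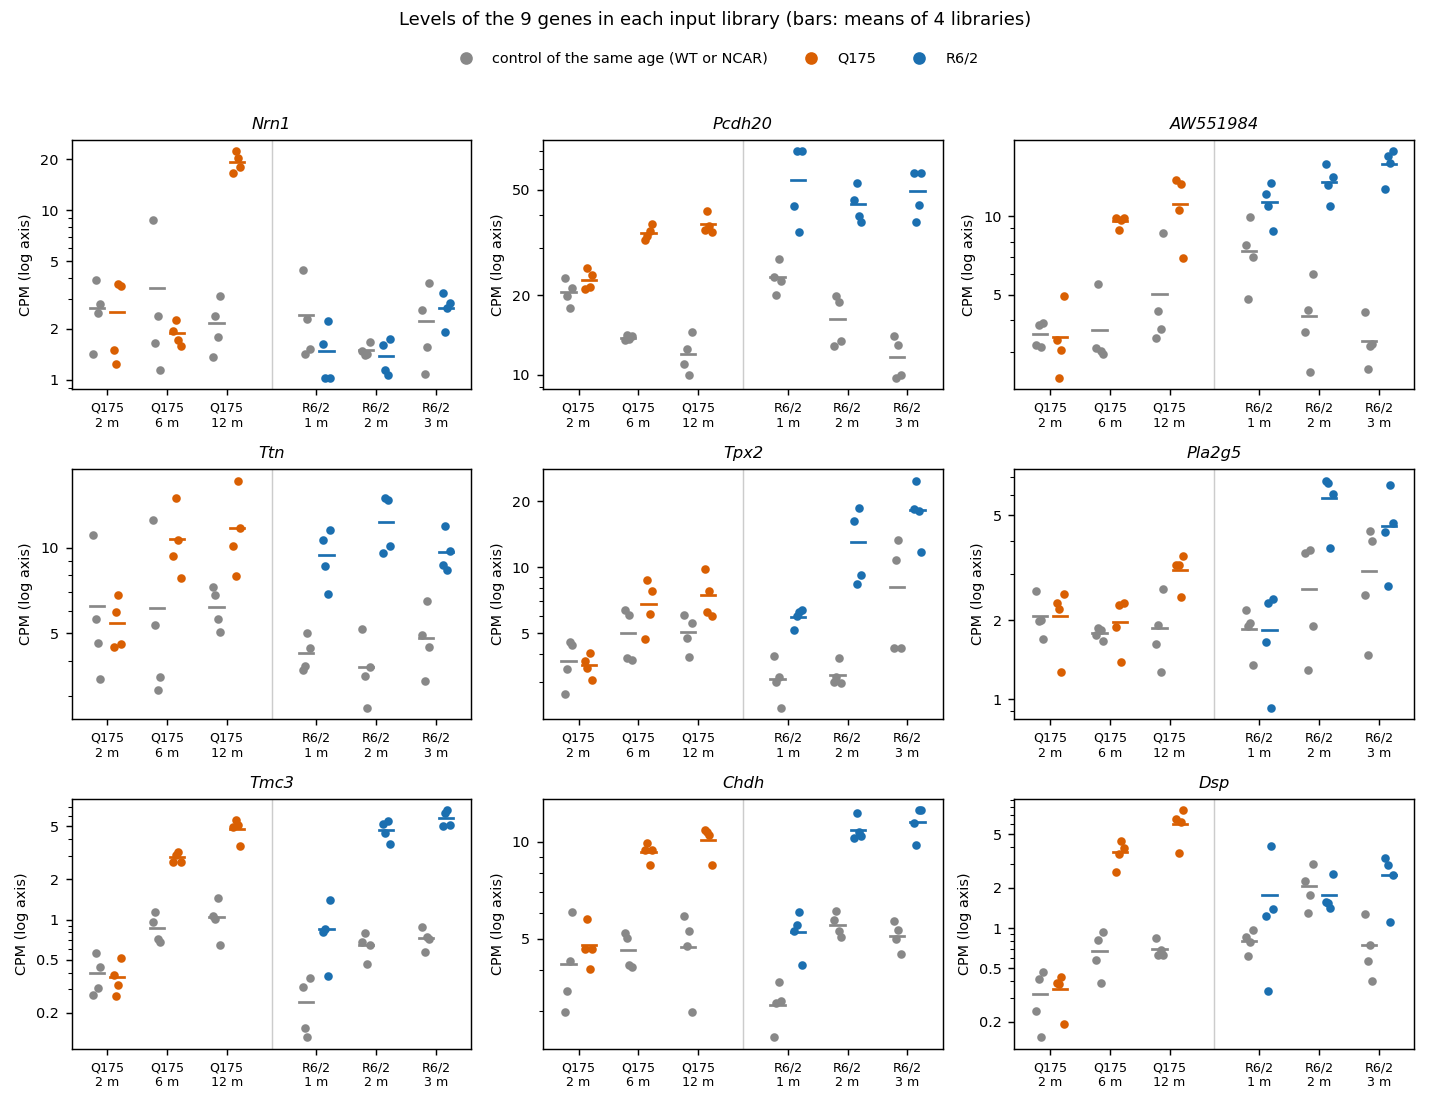
Level of each gene in every input library, in CPM on a log axis, with the same layout, colours and means as the plot of IP levels. R6/2 input libraries of Tmc3 and Pcdh20 lie above all NCAR libraries of their age at 1, 2 and 3 months. Those of Nrn1 overlap them, at 3 months through replicates 1 and 4 of NCAR, the highest of their group.

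**Figure D4:**
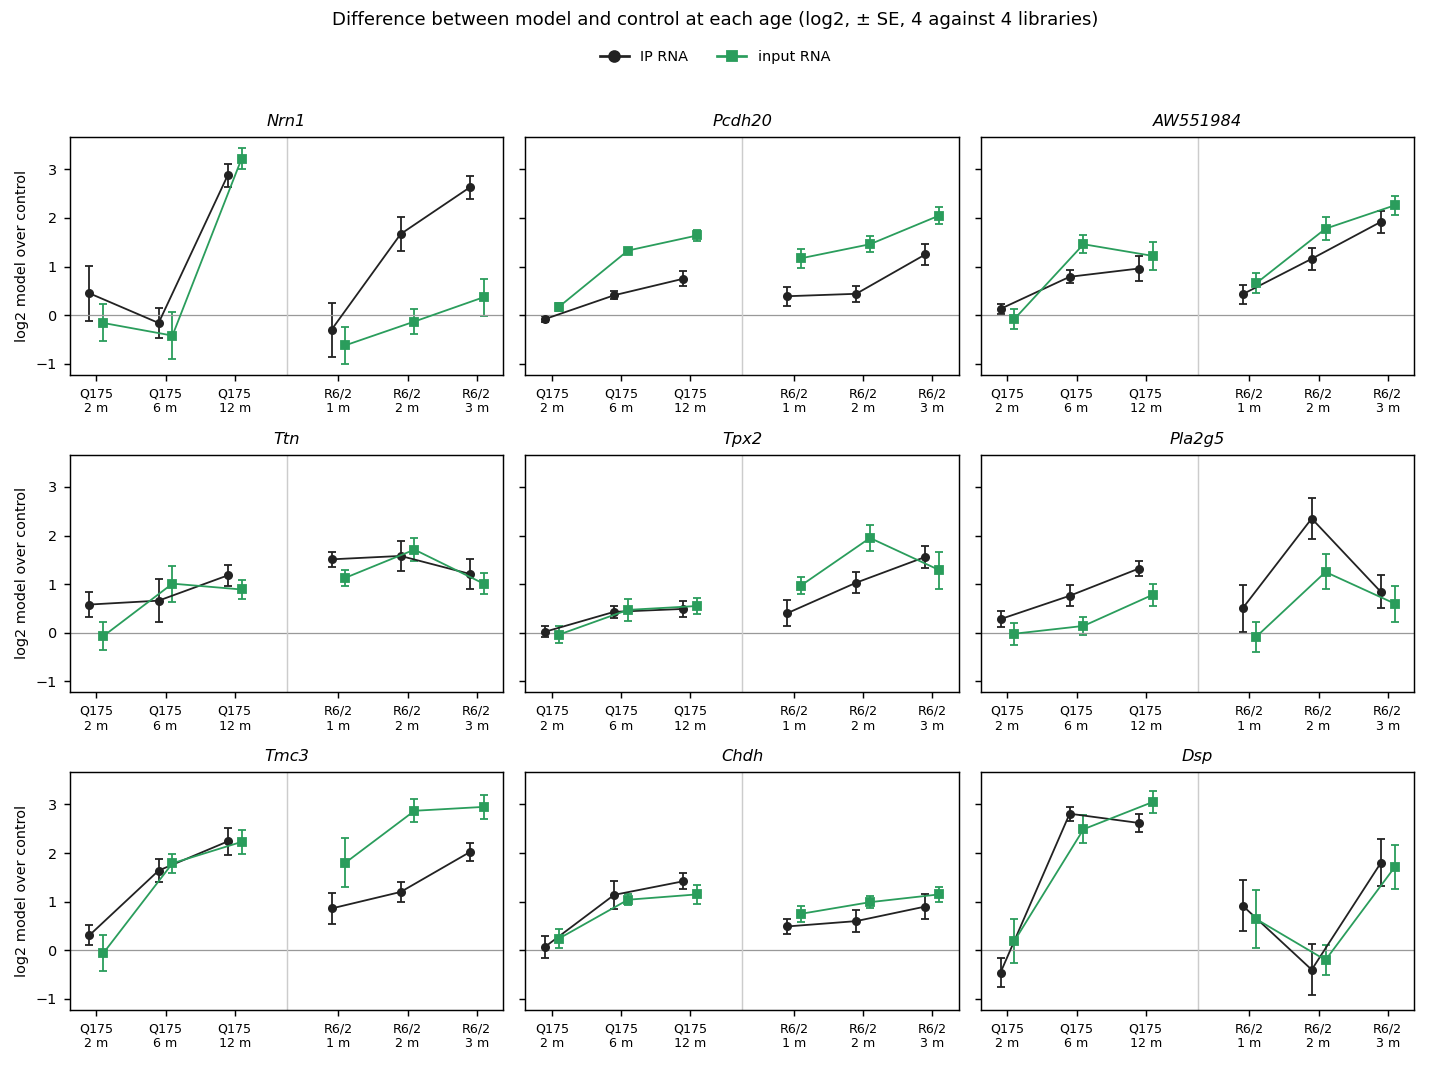
Log2 difference between model and control at each age for each gene, with SE, in IP (black circles) and input (green squares), 4 against 4 libraries each. Nrn1 is 2.63 in IP and 0.37 in input of R6/2 mice at 3 months. Without replicates 1 and 4 of NCAR, which held the highest Nrn1 of that group, the input value is 0.99. Pcdh20 and Tmc3 lie higher in input than in IP of R6/2 mice at each age.

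Groups were also ordered by mean level within a run. In the run of Q175 and WT mice, Q175 at 12 months was first in IP for 7 of the 9 genes. For Tpx2 it was Q175 at 6 months, which overlapped Q175 at 12 months, and for Pcdh20 it was WT at 2 months, which overlapped Q175 at 6 months. Only for Nrn1 and Tmc3 was the first group free of overlap with the second. In the run of R6/2 and NCAR mice at 2 and 3 months, R6/2 at 3 months was first in IP for 8 genes and R6/2 at 2 months for Pla2g5. There the first group was free of overlap with the second for Nrn1, AW551984 and Tmc3. In input Q175 at 12 months was first for all 9 genes, free of overlap with the second group for Nrn1 and Tmc3. R6/2 at 3 months was first in input for 7 genes and R6/2 at 2 months for Ttn and Pla2g5, each overlapping the second group. At 1 month R6/2 was first in IP for all genes but Nrn1, and in input for all but Nrn1 and Pla2g5.

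Enrichment in IP over input was tested within control mice, whose libraries were also the baseline of the rises that chose the genes. By this test Pcdh20 and Tmc3 were higher in IP in each of the 6 control groups, and AW551984 and Pla2g5 in 5 of them, while Nrn1 was lower in IP in 5. Of the 9 genes, 4, 4 and 5 were called higher in IP of WT mice, from the youngest age to the oldest. In NCAR mice 5, 4 and 4 of them were. IP and input differed for a large part of all genes: 38.8%, 37.5% and 37.9% were called higher in WT and 34.9%, 27.3% and 29.0% in NCAR. The numbers of members called lower were 1, 1, 2, 1, 1 and 1 in the same order, against 40.9%, 39.4%, 39.1%, 36.8%, 28.5% and 27.7% of all genes. The median log2 of the 9 genes was 0.56 to 0.68 over the 6 groups, and that of all genes tested -0.04 to 0.00. With the deposited scaling the median of all genes in WT was -0.27, -0.28 and -0.26, and the share of called genes that were higher in IP went from 48.7%, 48.7% and 49.2% to 34.6%, 31.9% and 33.3%.

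Pcdh20 was higher in IP by 0.99 ± 0.08, 1.15 ± 0.08 and 0.80 ± 0.11 in WT at 2, 6 and 12 months (adjusted p = 7.94e-07, 1.28e-07 and 3.42e-05) and by 0.87 ± 0.14, 1.27 ± 0.20 and 1.13 ± 0.21 in NCAR at 1, 2 and 3 months (adjusted p = 0.000291, 0.000375 and 0.00104). In all 6 groups each IP library lay above each input library. Tmc3 was higher by 1.78 ± 0.30, 1.19 ± 0.24 and 1.36 ± 0.32 in WT (adjusted p = 0.000253, 0.000985 and 0.00227) and by 1.88 ± 0.42, 1.12 ± 0.28 and 1.23 ± 0.28 in NCAR (adjusted p = 0.00263, 0.00711 and 0.00356). Its libraries overlapped only in WT at 12 months. For comparison, the median log2 of the 20 astrocyte markers was 2.22 to 3.26 over the same groups, so the ratios of both genes were below the median of those markers in each group. The median of the 10 striatal interneuron markers was 1.82, 1.53 and 1.30 in WT and 1.94, 1.82 and 1.28 in NCAR. The Pcdh20 ratio was below it in each group, and that of Tmc3 was above it in WT at 12 months and below it in the other groups. The median of the 6 oligodendrocyte precursor markers was 0.62 to 1.17.

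AW551984 was higher in IP by 1.12 ± 0.11 and 1.12 ± 0.20 in WT at 2 and 6 months (adjusted p = 3.96e-06 and 0.000334) and by 0.56 ± 0.22, 1.06 ± 0.31 and 1.02 ± 0.27 in NCAR (adjusted p = 0.0452, 0.0139 and 0.00846). In WT at 12 months it stood at 0.62 ± 0.28 (adjusted p = 0.06). Pla2g5 was higher by 0.68 ± 0.19, 0.92 ± 0.13 and 0.97 ± 0.20 in WT (adjusted p = 0.00729, 7.74e-05 and 0.000869) and by 1.33 ± 0.44 and 1.64 ± 0.35 in NCAR at 1 and 3 months (adjusted p = 0.02 and 0.00255). In NCAR at 2 months it stood at 0.89 ± 0.52 (adjusted p = 0.171), with IP libraries spread over 2.18 to 10.4 CPM. The call of AW551984 in NCAR at 1 month was lost without any 1 of 5 of the 8 libraries (IP replicate 3 or 4, input replicate 1, 2 or 4), with adjusted p of 0.0546 to 0.114, and without the libraries that stood apart in cortical markers (0.64, adjusted p = 0.0525). That of Pla2g5 was lost without IP replicate 3 or input replicate 4 (adjusted p = 0.0548 and 0.0538). With the deposited scaling Pla2g5 in WT at 2 months was 0.44 (adjusted p = 0.052).

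Nrn1 was lower in IP than in input of control mice. It stood at -1.22 ± 0.48, -1.92 ± 0.52 and -1.88 ± 0.30 in WT (adjusted p = 0.0361, 0.00543 and 0.000115) from the youngest age to the oldest. In NCAR it was -1.06 ± 0.35 at 2 months (adjusted p = 0.0274) and -1.43 ± 0.40 at 3 months (adjusted p = 0.0114). In NCAR at 1 month it was -1.30 ± 0.60 (adjusted p = 0.0737), and without replicate 1 of the IP libraries -1.91 (adjusted p = 0.00135). In WT at 2 months the call was lost without any 1 of 5 libraries (IP replicate 2 or 4, input replicate 2, 3 or 4), down to -0.78 without IP replicate 2, with adjusted p of 0.0664 to 0.103. In WT at 6 months it was -1.32 without input replicate 1 (adjusted p = 0.00342), and in NCAR at 2 months the call was lost without input replicate 2 or 4 (adjusted p = 0.0545 and 0.0657). Without all libraries that stood apart in cortical markers, Nrn1 was -1.57, -1.22 and -0.91 in NCAR at 1, 2 and 3 months (adjusted p = 0.00106, 0.0222 and 0.111).

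The other members were called in few control groups. Ttn was lower in IP in WT at 12 months (-0.81 ± 0.19, adjusted p = 0.00188) and in NCAR at 1 month (-0.41 ± 0.16, adjusted p = 0.0455). The second of these calls was lost without any 1 of 6 libraries, IP replicate 2, 3 or 4 or input replicate 2, 3 or 4 (adjusted p of 0.0624 to 0.148). Tpx2 was higher in IP in NCAR at 1 and 2 months (0.80 ± 0.29 and 0.66 ± 0.20, adjusted p = 0.0285 and 0.019) and was not called in WT or in NCAR at 3 months (-0.29 to 0.15). Without the libraries that stood apart in cortical markers it was -0.82 in NCAR at 3 months (adjusted p = 0.0169). Its calls were lost without IP replicate 3 or input replicate 2 or 4 at 1 month and without IP replicate 3 or 4 at 2 months, of which replicate 3 stood apart in cortical markers. Chdh was called higher in WT at 12 months (0.66 ± 0.22, adjusted p = 0.0172), a call lost without IP replicate 4 (0.50, adjusted p = 0.0546) or with the deposited scaling (0.41, adjusted p = 0.0975). Dsp was called higher in the same group (1.16 ± 0.23, adjusted p = 0.00059), where the IP libraries held 1.77, 2.04, 1.12 and 1.39 CPM and the input libraries 0.842, 0.633, 0.681 and 0.625 CPM, with no overlap.

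Leaving out 1 library also brought calls that the full groups did not give. AW551984 in WT at 12 months was called without IP replicate 2 or input replicate 4 (0.75 and 0.91, adjusted p = 0.0373 and 0.00157). Dsp was called without input replicate 2 or 4 in WT at 2 months and without input replicate 4 in WT at 6 months (adjusted p of 0.0267 to 0.0424). Chdh was called without input replicate 4 in WT at 2 months, without IP replicate 1 or 3 in WT at 6 months, and without IP replicate 2 in NCAR at 3 months (adjusted p of 0.00615 to 0.0344). Tpx2 was called lower without IP replicate 1 or input replicate 3 in WT at 12 months, and Ttn without input replicate 2 in NCAR at 3 months (adjusted p of 0.0299 to 0.0498). Each of these values kept the direction it had with all libraries.

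**Figure D5:**
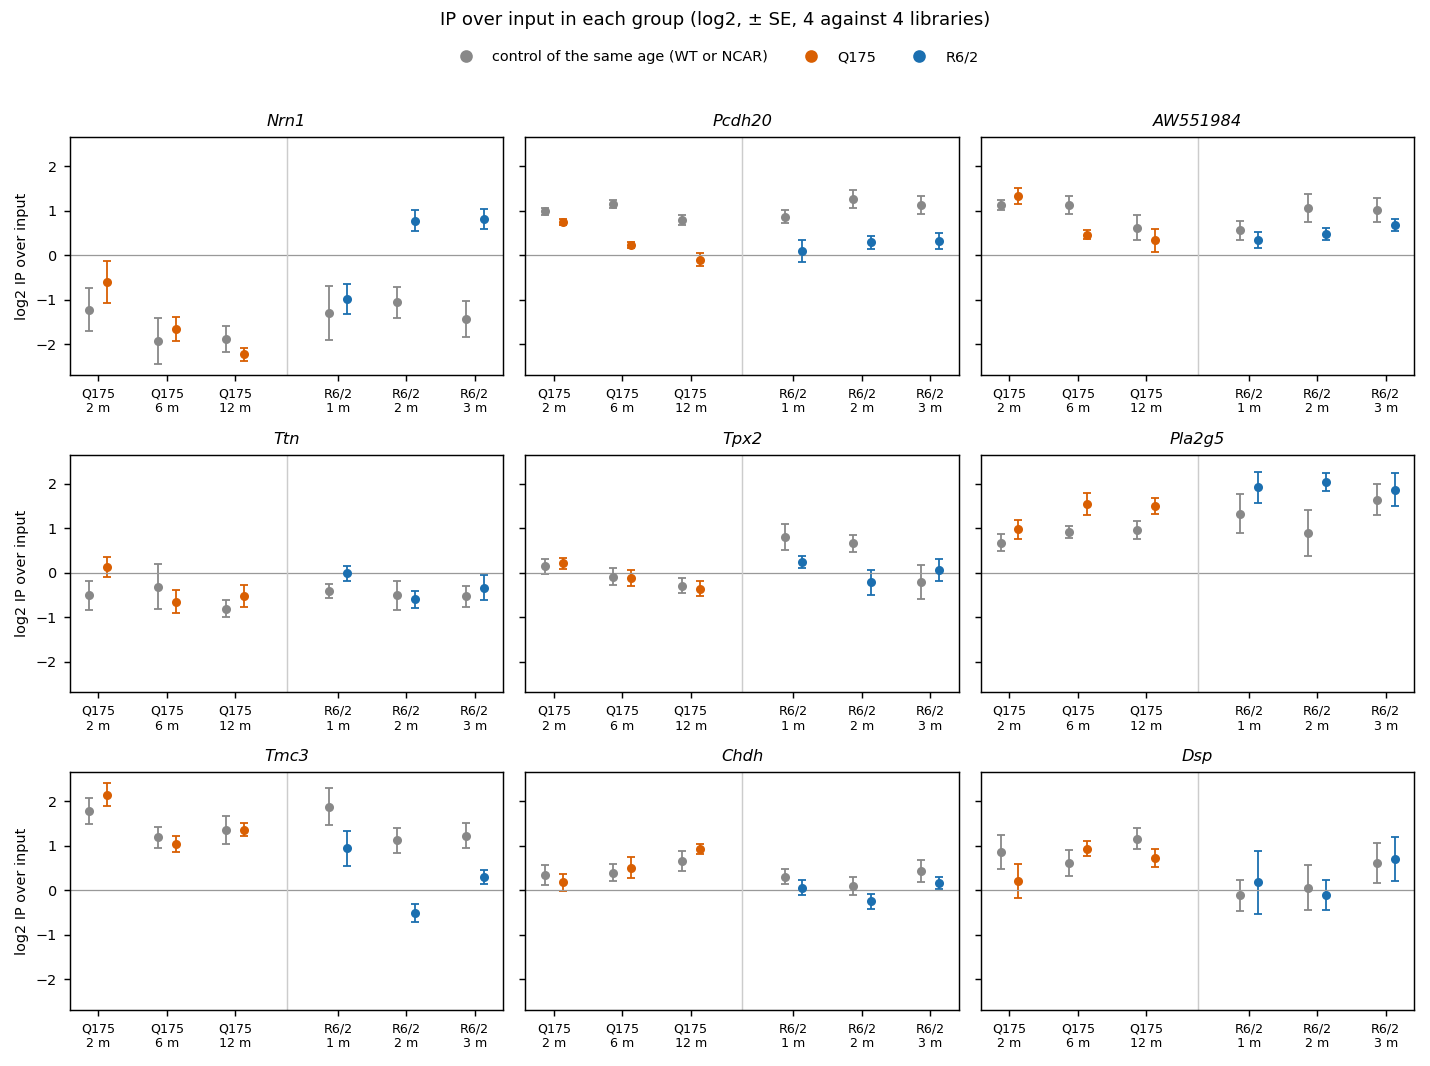
Log2 ratio of IP to input for each gene in each group, with SE, 4 IP against 4 input libraries. Grey points are controls of the same age (WT or NCAR), orange points Q175 and blue points R6/2. Nrn1 lies below 0 in each control group and at 0.78 and 0.82 in R6/2 at 2 and 3 months, and Pcdh20 stands at -0.10 in Q175 at 12 months.

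In the model mice the same ratio is a description, since the model libraries held the rises that chose the genes. The ratio of Pcdh20 was below that of the controls at each age. It was 0.75 ± 0.07, 0.23 ± 0.06 and -0.10 ± 0.14 in Q175 and 0.10 ± 0.25, 0.29 ± 0.14 and 0.32 ± 0.18 in R6/2. At 12 months Q175 IP and input held about the same level, 34.8 ± 7.31 and 37.0 ± 3.20 CPM (mean ± SD, n = 4), where WT held 20.5 ± 1.53 and 12.0 ± 1.97 CPM. The ratio of Tmc3 in Q175 was 2.15 ± 0.26, 1.04 ± 0.18 and 1.36 ± 0.15. In R6/2 it was 0.94 ± 0.40, -0.51 ± 0.20 and 0.30 ± 0.16. At 2 months, then, R6/2 mice had on average less Tmc3 in IP than in input, where NCAR mice had more. The R6/2 libraries overlapped, at 2.56 to 4.10 CPM in IP and 3.68 to 5.46 CPM in input.

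Nrn1 went the other way in R6/2. Its ratio was -0.98 ± 0.34 at 1 month and then 0.78 ± 0.24 and 0.82 ± 0.23, so that all IP libraries at 2 and at 3 months lay above all input libraries of that age. In Q175 it stayed below 0, at -0.61 ± 0.47, -1.65 ± 0.27 and -2.23 ± 0.15. The ratio of Pla2g5 was 0.98 ± 0.21, 1.55 ± 0.25 and 1.50 ± 0.17 in Q175 and 1.92 ± 0.35, 2.04 ± 0.21 and 1.87 ± 0.37 in R6/2. AW551984 stood at 1.33 ± 0.19, 0.46 ± 0.10 and 0.34 ± 0.26 in Q175 and at 0.34 ± 0.18, 0.48 ± 0.14 and 0.68 ± 0.13 in R6/2. Chdh ranged from -0.25 to 0.92, Dsp from -0.11 to 0.93, Ttn from -0.65 to 0.13 and Tpx2 from -0.36 to 0.24 over the 6 model groups. Whether these ratios differ between model and control was not tested.

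Age was tested in control mice within a run. Choosing genes for large rises at the older ages favours low control levels at those ages, so these tests are not independent of the choice. Such levels lie in the direction of the Pcdh20 change that follows and opposite to those of Tmc3 and Dsp. Between 2 and 12 months Pcdh20 fell in both RNA types of WT mice, while Tmc3 and Dsp rose, the direction in which these 2 genes also differed between Q175 and WT. In IP 1 member was called higher and 1 lower at 6 against 2 months, where 9.12% and 12.0% of all genes were. At 12 against 2 months the counts were 2 and 1, against 11.5% and 14.2%. In input they were 1 and 1 at 6 months, against 9.92% and 8.57%, and 2 and 1 at 12 months, against 14.4% and 11.8%. With the deposited scaling the share of called genes that were higher went from 44.8% to 58.6% at 12 months in IP, from 53.7% to 75.3% at 6 months in input and from 54.9% to 72.5% at 12 months in input.

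Pcdh20 changed by -0.41 ± 0.08 at 6 and -0.98 ± 0.07 at 12 months in WT IP (adjusted p = 0.00764 and 9.71e-05) and by -0.58 ± 0.08 and -0.79 ± 0.12 in WT input (adjusted p = 0.00274 and 0.00116). Its level at 12 months was 0.506 times that at 2 months in IP and 0.578 times in input, with no overlap. Dsp changed by 0.87 ± 0.19 and 1.52 ± 0.23 in IP (adjusted p = 0.0139 and 0.00141) and by 1.21 ± 0.38 at 12 months in input (adjusted p = 0.035). The input value at 6 months was 1.11 ± 0.43 (adjusted p = 0.097). Tmc3 changed by 1.13 ± 0.32 and 1.38 ± 0.33 in input (adjusted p = 0.0331 and 0.0117) and by 0.96 ± 0.31 at 12 months in IP (adjusted p = 0.0446). The Tmc3 call in IP was lost without any 1 of 6 libraries (replicate 1, 2 or 4 at 12 months, or replicate 2, 3 or 4 at 2 months), with adjusted p of 0.0593 to 0.116, and with voom (0.0619). The call of Tmc3 in input at 6 months was lost without any 1 of 4 libraries (replicate 1 or 2 at 6 months, or 1 or 3 at 2 months), with adjusted p of 0.0673 to 0.095. That of Dsp in input at 12 months was lost without any of the 4 libraries at 12 months or replicate 1 or 3 at 2 months (adjusted p of 0.061 to 0.0927). By the same test AW551984, Ttn, Tpx2, Pla2g5, Chdh and Nrn1 were not called with age in WT mice. Their log2 values were -0.95 to 0.48 in IP and -0.28 to 0.44 in input. At 12 against 2 months in IP, Nrn1 was -1.37 (adjusted p = 0.024) and Chdh 0.65 (adjusted p = 0.0254) without replicate 2 of WT at 2 months.

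In NCAR mice limma called 0.0% of genes higher and 0.0% lower at 3 against 2 months in IP, and 0.0% and 0.0% in input. Voom also called 0 genes, and at an unadjusted p under 0.05 there were 871 genes in IP and 2321 in input. The members therefore have no call there. Dsp stood at -1.50 ± 0.42 and Tpx2 at 1.18 ± 0.37 in input (adjusted p = 0.242 and 0.257), each with no overlap of libraries. Without replicates 1 and 4 at 3 months, which stood apart in cortical markers, 60 genes were called in input, and Tpx2 was 1.92 (adjusted p = 0.0333). Dsp in NCAR input thus lay lower at 3 than at 2 months, and in WT mice higher at 12 than at 2 months. Pcdh20 was -0.61 ± 0.22 in IP and -0.44 ± 0.19 in input of NCAR mice (adjusted p = 0.837 and 0.31). NCAR mice of 1 month were not compared with the older ones, since they carry another run label.

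Members were also compared with one another across the 48 IP libraries, on log2 CPM minus the mean of the control IP libraries of the same age. These libraries share their controls and the rises that chose the genes, so Pearson's r is a description only. The highest r among the 36 pairs was 0.86 for Tmc3 and Chdh, then 0.84 for Pcdh20 and AW551984 and 0.79 for AW551984 and Tpx2. The lowest was 0.14 for Pla2g5 and Dsp. Among 11247 further genes averaging 5 CPM or more, the patterns most like those of the members were the following. Tmc3 was followed most closely by Sfmbt2 (0.87) and Smoc1 (0.86), Chdh by Smoc1 (0.82) and Enpp6 (0.80), and Dsp by Sfmbt2 (0.77). Smoc1 thus came up for Tmc3 and Chdh, and Sfmbt2 for Tmc3 and Dsp. Pcdh20 was followed by Pcdh19 (0.83), a protocadherin as well, and Abca7 (0.82). AW551984 was followed by Ahi1 (0.89) and Brinp3 (0.87), and Tpx2 by Nfya (0.90) and Pmm2 (0.88). For Nrn1 they were Col11a1 (0.79) and Lancl2 (0.78), for Ttn Polr2a (0.77) and Tmem245 (0.75), and for Pla2g5 Trim68 (0.76) and Tmem2 (0.75).

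Partners and family members of the 9 genes gave calls in both directions where the genes themselves stood higher, and the lists differed. They were counted by the calls of the genotype fits in IP, over lists made with earlier results of these data known. Of all genes tested, 0.324% were called higher and 3.47% lower in Q175 at 6 months, 2.2% and 4.77% at 12 months, 1.12% and 4.49% in R6/2 at 2 months, and 4.89% and 9.32% at 3 months. With the deposited scaling the share of calls that were higher went from 8.54% to 20.0% at 6 months and from 31.5% to 53.0% at 12 months in Q175. In R6/2 it went from 20.0% to 17.1% at 2 months and from 34.4% to 31.9% at 3 months. Without the libraries that stood apart in cortical markers, 297 genes in place of 842 were called in R6/2 at 2 months and 2057 in place of 2136 at 3 months. Of the lists that follow, 12 of the activity genes were then called lower at 2 months and 11 at 3 months, 5 desmosome genes were called lower at 3 months, and 0 mitotic genes were called higher at either age.

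Genes of the list of activity-regulated and synaptic genes around Nrn1 were called lower. Of 18 genes tested 0 were called higher in these 4 comparisons, and 7 and 9 were called lower in Q175 at 6 and 12 months and 13 and 10 in R6/2 at 2 and 3 months. The medians were -0.36, -0.77, -1.45 and -1.11, where those of all genes were 0.01 to 0.02. Rgs4, a regulator of G protein signalling, stood at 251 ± 59.1 against 559 ± 63.2 CPM in Q175 and WT at 12 months (-1.17 ± 0.16, adjusted p = 0.00298) and at 174 ± 22.3 against 564 ± 60.4 CPM in R6/2 and NCAR at 3 months (-1.69 ± 0.13, adjusted p = 0.000183). Junb, an immediate early transcription factor, was -0.76 ± 0.16 in Q175 at 12 months and -1.35 ± 0.18 in R6/2 at 3 months (adjusted p = 0.0201 and 0.00186). Inhba, a subunit of activin, was -0.97 ± 0.24 and -2.20 ± 0.22 in the same comparisons (adjusted p = 0.0382 and 0.000484). In Q175 at 12 months and in R6/2 at 2 and 3 months Nrn1 stood higher in IP RNA in which many of these genes were called lower. In Q175 at 6 months 7 of them were called lower while Nrn1 overlapped WT. The medium spiny neuron markers were lower as well, with 14 of 16 called lower in Q175 at 12 months and 13 of 16 in R6/2 at 3 months.

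Sarcomere genes around Ttn were mostly lower where they were called. Of 23 tested in Q175 at 6 months 0 were called higher and 6 lower, and of 22 at 12 months 1 and 6. In R6/2 the counts were 0 and 3 of 21 at 2 months and 1 and 6 of 21 at 3 months. Myh7b, a myosin heavy chain, stood at 3.82 ± 0.823 against 7.86 ± 1.22 CPM in Q175 and WT at 12 months (-1.04 ± 0.17, adjusted p = 0.00737) and at 2.91 ± 0.532 against 8.82 ± 1.97 CPM in R6/2 and NCAR at 3 months (-1.58 ± 0.22, adjusted p = 0.00218). Actn2, an alpha-actinin found at synapses as well as in muscle, was -0.88 ± 0.18 and -1.15 ± 0.21 (adjusted p = 0.0177 and 0.00845). Ryr2, a calcium release channel, was -0.37 ± 0.09 in Q175 at 12 months (adjusted p = 0.0312).

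Protocadherins related to Pcdh20 were split. Of 10 tested 0 were called higher and 1 lower in Q175 at 6 months, 3 and 1 at 12 months, and in R6/2 0 and 0 at 2 months and 2 and 0 at 3 months. Pcdh19, which neurons use for adhesion, stood at 40.8 ± 6.75 against 26.9 ± 3.71 CPM in Q175 and WT at 12 months (0.61 ± 0.13, adjusted p = 0.0205) and at 85.5 ± 15.5 against 44.5 ± 5.68 CPM in R6/2 and NCAR at 3 months (0.94 ± 0.15, adjusted p = 0.0049). Pcdh15 rose by 0.46 ± 0.09 in Q175 at 12 months (adjusted p = 0.017). Pcdh7 was lower in Q175, at -0.34 ± 0.06 at 6 and -0.29 ± 0.07 at 12 months (adjusted p = 0.00779 and 0.0319).

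The mitotic list around Tpx2, which is itself no member of it, had 32 genes tested. In Q175 0 were called higher at 6 months and 2 at 12 months, in R6/2 2 at 2 months and 1 at 3 months, and 0 were called lower in any of these. Its medians were 0.41, 0.33, 0.54 and 0.14. Bub1b, a spindle checkpoint kinase, stood at 1.42 ± 0.101 against 0.612 ± 0.147 CPM in R6/2 and NCAR at 2 months (1.25 ± 0.26, adjusted p = 0.0234). Tacc3, a spindle protein, was 0.54 ± 0.15 in R6/2 at 3 months (adjusted p = 0.0387), and Anln, anillin of the dividing cell's furrow, 0.68 ± 0.16 in Q175 at 12 months (adjusted p = 0.0305). Anln is also known from myelinating oligodendrocytes.

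Desmosome genes around Dsp had few calls in IP. In R6/2 there were 1 higher and 0 lower of 12 at 2 months and 1 and 2 of 12 at 3 months, against 0 and 0 of 13 in Q175 at both ages. Ppl, periplakin, a relative of desmoplakin, stood at 6.45 ± 2.30 against 2.11 ± 0.201 CPM in R6/2 and NCAR at 3 months (1.55 ± 0.24, adjusted p = 0.00391). Dsc3, a desmosomal cadherin, was -1.54 ± 0.25 and Pkp4, a plakophilin relative, -0.48 ± 0.10 (adjusted p = 0.00521 and 0.0128). The gene called higher in R6/2 at 2 months was Dsg2 (0.79 ± 0.19). In input Dsg2 was called higher in Q175 at 6 and 12 months and in R6/2 at 1, 2 and 3 months (0.80 to 1.47). In those input comparisons 1 or 2 genes of the list were called higher and 1 or 2 lower. Of 9 phospholipases A2 tested beside Pla2g5, 1 was called higher and 1 lower in Q175 at 12 months, 0 and 0 at 6 months, and 0 and 1 in R6/2 at 2 and at 3 months. Pla2g4a, the cytosolic enzyme that frees arachidonic acid, stood at 8.69 ± 1.79 against 4.34 ± 0.994 CPM in Q175 and WT (1.02 ± 0.18, adjusted p = 0.00975), and Pla2g3, a secreted one, was -0.72 ± 0.19 in Q175 at 12 months and -1.26 ± 0.34 in R6/2 at 3 months (adjusted p = 0.0441 and 0.0373).

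Among 18 choline and betaine genes tested beside Chdh, 0 and 1 were called higher in Q175 at 6 and 12 months and 0 and 2 in R6/2 at 2 and 3 months, and 1 was called lower in R6/2 at each of those ages. Slc5a7, the choline transporter of cholinergic neurons, stood at 104 ± 12.8 against 219 ± 34.6 CPM in R6/2 and NCAR at 3 months (-1.06 ± 0.13, adjusted p = 0.00144). Slc44a5, a choline transporter-like protein, was 0.82 ± 0.17 at that age and Chpt1, which makes phosphatidylcholine, 0.25 ± 0.06 in Q175 at 12 months (adjusted p = 0.0126 and 0.0414). Of 8 genes of TMC channels and their partners, 1 was called higher in Q175 at 12 months and 1 in R6/2 at 3 months, 0 in Q175 at 6 months and in R6/2 at 2 months, and 0 were called lower. These were Tmc6, a family member, at 0.69 ± 0.13, and Lhfpl5, a partner of the hair cell channel, at 0.86 ± 0.24 (adjusted p = 0.0128 and 0.0374). Genes with von Willebrand A or VIT domains, set beside AW551984, gave 1 higher and 1 lower of 11 in Q175 at 6 months, 1 and 2 of 12 at 12 months, and in R6/2 0 and 2 of 10 at 2 months and 1 and 3 of 11 at 3 months. Vwa5b2 was 0.84 ± 0.09 in Q175 at 12 months and 0.97 ± 0.16 in R6/2 at 3 months, Vwa7 -1.66 ± 0.32 and -2.25 ± 0.29, and Vwa1 -0.99 ± 0.26 in R6/2 (adjusted p = 0.000875, 0.00476, 0.0146, 0.00173 and 0.0339).

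Some members share exon bases with another gene on the opposite strand, and the sources used here do not say whether reads were counted by strand, so reads of such bases cannot be told apart. Nrn1 shares 501 bases with Fars2 and Chdh 589 bases with Cacna1d. Fars2, a mitochondrial tRNA synthetase, was 0.06 ± 0.07 in Q175 IP at 12 months and 0.07 ± 0.13 in R6/2 IP at 3 months. Cacna1d, a calcium channel subunit, was 0.00 ± 0.08 and -0.14 ± 0.21 there. Tmc3 shares 3961 bases with Gm16638, Dsp 499 with Gm10129 and Ttn 453 with Gm13938, for which no values are given here.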

How the data were processed

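Poly(A) RNA of mouse striatum, IP or input, was sequenced in 96 libraries, 24 groups of 4. The authors deposited log2 CPM per gene and library. STAR, HTSeq, edgeR, limma and mm10 are named, with no versions, per the submitters' processing notes. Whether counting used strand is not given in the sources used here. Whole reads, less the prior of 0.25 reads, were recovered from the deposited log2 values in all 96 libraries (100.0% of values under 5000 reads lay within 0.01 of a whole number). For each comparison, genes with at least 10 reads in a library of median size and 15 in total were kept, scaled by TMM (30% of M and 5% of A values trimmed) and tested with limma 3.58.1 (intensity trend, R 4.3.3, prior count 0.25) at a Benjamini-Hochberg adjusted p under 0.05. The test was checked on simulated data. These had the same spread for all genes and changes only in genes with more reads, so the check does not cover low or uneven members. CPM levels use 1 TMM scaling per run, so they can differ slightly from a comparison's log2 change. Gene positions are from GENCODE vM21 (GRCm38). The members and lists were chosen with earlier results of these data known. The cortical list and its threshold were chosen after values were seen: of the candidate genes, Prox1 did not follow the others and Lct was not analysed here. Beside all 9 members, the text names from each related list up to 3 genes with the smallest adjusted p among those called in IP, and for each member the 2 genes with the highest r, of which 1 is not reported here. Alternatives were the deposited scaling, a prior count of 2, no filter, voom, all ages in 1 fit and leaving out libraries. In the deposited values of Q175 and WT mice the scaled library size was 1.0 times the read total in every library. It was 0.862 to 1.174 times the total in R6/2 and NCAR mice at 1 month and 0.814 to 1.214 times at 2 and 3 months. The deposited scaling of Q175 and WT libraries thus rested on read totals alone.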

Additional observations from a re-analysis of the deposited data

Results flagged for a closer look

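In 14 of 216 groups of 4 libraries, 9 genes in 24 groups, 1 library lay far from the other three, and chance alone gives about 1 in 20. Nrn1 stood at 3.14 CPM in replicate 1 of NCAR IP at 1 month, where the others held 0.478 to 0.691 CPM, and at 8.71 CPM in replicate 1 of WT input at 6 months, where the others held 1.15 to 2.39 CPM. Both libraries also had the highest cortical marker sums of their groups, 81.0 and 51.0 CPM, and the part of this in the Nrn1 level was not tested. Dsp stood at 6.46 CPM in replicate 1 of NCAR IP at 2 months against 1.31 to 1.49 CPM, and at 2.52 CPM in replicate 4 of R6/2 input at 2 months. The same NCAR library held the lowest Pcdh20 of its group, 27.9 CPM against 42.1 to 44.2 CPM.

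Pcdh20 was also far from the others at 44.4 CPM in replicate 2 of Q175 IP at 6 months and at 42.3 CPM in replicate 3 of R6/2 IP at 2 months. AW551984 stood at 5.50 CPM in replicate 2 of WT input and at 8.84 CPM in replicate 2 of Q175 input at 6 months. Pla2g5 stood at 4.73 CPM in replicate 4 of WT IP at 2 months, 12.4 CPM in replicate 3 of Q175 IP at 12 months and 29.0 CPM in replicate 1 of R6/2 IP at 2 months. Ttn stood at 9.75 CPM in replicate 2 of Q175 IP at 2 months and Chdh at 7.39 CPM in replicate 2 of WT IP at 2 months.

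The ratio of IP to input of Nrn1 had opposite signs in different groups, with no overlap of libraries in each. It was -1.92 and -1.88 in WT at 6 and 12 months, -1.06 and -1.43 in NCAR at 2 and 3 months, -1.65 and -2.23 in Q175 at 6 and 12 months and -0.98 in R6/2 at 1 month. In R6/2 it was 0.78 at 2 months and 0.82 at 3 months. The difference between these groups was not tested.

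Dsp had opposite signs with age. It was 0.87 and 1.52 in WT IP at 6 and 12 against 2 months and 1.21 in WT input at 12 against 2 months, and -1.50 in NCAR input at 3 against 2 months, each with no overlap of libraries. The ages and strains differ, and the difference was not tested.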

How the results depend on the processing

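No paired analysis was possible because nothing in the labels ties an IP library to an input library or a library of one group to one of another. Outside the runs that leave out 1 library, 295 of 311 counts stayed within 1.5 times of the value reported. With the deposited scaling the genes called in Q175 input were 0 (1 in the report's fit), 3423 (2154) and 4408 (2855) at 2, 6 and 12 months, the IP to input ratio of Tpx2 in WT at 2 months was -0.09 (0.15), and that in WT at 12 months was -0.53 (adjusted p = 0.0156). With voom 1 member in place of 2 was called higher at 12 against 2 months in WT IP, 7 genes in place of 12 were called in R6/2 IP at 1 month, Dsp in NCAR at 2 months was -0.05 (0.06) and Dsp in WT at 2 months was 0.83 (adjusted p = 0.0487). All ages in 1 fit gave 8 genes in place of 3 in Q175 IP at 2 months and 1865 in place of 1059 at 12 months, where fits of 1 age hold fewer libraries. Leaving out the libraries that stood apart in cortical markers gave 1 gene in place of 3 in Q175 IP and 0 in place of 1 in Q175 input at 2 months, 34 in place of 12 in R6/2 IP at 1 month, 297 in place of 842 in R6/2 IP at 2 months, 60 in place of 0 for age in NCAR input, 2 members in place of 1 lower in IP in NCAR at 1 month, 1 member in place of 0 higher with age in NCAR input, -0.18 in place of 0.45 for Nrn1 there, 1 related gene in place of 0 and 4 members in place of 2 without overlap in R6/2 IP at 1 month. Leaving out libraries can only keep or raise the count of members without overlap. The cause of the other changes was not tested.

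Leaving out 1 library at a time, the number of genes called in IP ranged from 1 to 7 (3), 305 to 828 (574) and 460 to 1026 (1059) in Q175 at 2, 6 and 12 months, and from 2 to 34 (12), 429 to 2470 (842) and 831 to 3133 (2136) in R6/2 at 1, 2 and 3 months. In input it ranged from 0 to 1 (1) and 1349 to 2113 (2154) in Q175 at 2 and 6 months, and from 1093 to 2029 (1910), 1616 to 2449 (2455) and 2877 to 5172 (4318) in R6/2 at the 3 ages. Related genes called in IP ranged from 8 to 17 (16) and 14 to 33 (29) in Q175 at 6 and 12 months, and from 0 to 1 (0), 17 to 41 (23) and 21 to 41 (32) in R6/2 at 1, 2 and 3 months. Genes called with age ranged from 1766 to 3293 (3180) in WT IP and 1287 to 2935 (2857) in WT input at 6 months and from 0 to 1 in NCAR input. Members higher without overlap, a count that can then only stay or rise, ranged from 0 to 1 in Q175 IP at 2 months. In R6/2 IP at 1 month they ranged from 2 to 4. Members called higher in IP than in input ranged from 2 to 5 (5) in NCAR at 1 month, and those called lower from 0 to 1 in WT at 2 months, 0 to 2, 0 to 1 and 1 to 2 in NCAR at 1, 2 and 3 months. Members called higher with age ranged from 1 to 2 in WT IP and input at 12 months and from 0 to 1 in WT input at 6 months, and those called lower from 1 to 2 in WT IP at 12 months.

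Values that changed sign without 1 library had no call with all libraries. As ratios of IP to input these were Ttn (-0.72 to 0.11) and Tpx2 (-0.20 to 0.04) in WT at 6 months, Dsp in NCAR at 1 month (-0.31 to 0.11) and 2 months (-0.49 to 0.29), Chdh in NCAR at 2 months (-0.04 to 0.22) and Tpx2 in NCAR at 3 months (-0.44 to 0.10). With age they were AW551984 (-0.06 to 0.08), Ttn (-0.31 to 0.48) and Pla2g5 (-0.04 to 0.20) at 6 months and AW551984 (-0.22 to 0.04) at 12 months in WT IP, Ttn at 6 months (-0.54 to 0.21) and 12 months (-0.13 to 0.44) in WT input, Nrn1 in NCAR IP (-0.29 to 0.19) and Pla2g5 in NCAR input (-0.03 to 0.57). A change of sign was counted between values rounded to 2 decimals, a rule set after the results were seen. It passes over Tpx2 at 12 months in WT IP and Nrn1 and AW551984 at 6 months in WT input, whose log2 was 0.00 and which the deposited scaling or voom moved to between -0.00 and 0.05.

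With 4 libraries a group, tested differences of the members near their SE, which was 0.07 to 0.60, were not detectable, and larger ones could go uncalled. By limma Nrn1 in IP over input of NCAR at 1 month, at -1.30 ± 0.60, had adjusted p = 0.0737. Dsp in NCAR input at 3 against 2 months, at -1.50, had adjusted p = 0.242. The lack of a call is therefore not the absence of a difference. Members with low CPM, such as Tmc3 and Dsp in young mice, rest on few reads. The labels give a run for each library, but they tie no IP library to an input library and no library to an animal.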
